A study of Homo sapiens with 52 samples.

Results

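The clustered protocadherin genes are 3 neighbouring arrays of cell adhesion genes on human chromosome 5, named alpha, beta and gamma. They were taken from the expression tables by gene symbol, as every gene named PCDHA, PCDHB, PCDHGA, PCDHGB, PCDHGC or PCDHAC followed by a number, which gave 53 of 27043 genes. The alpha cluster held 15 genes (chr5:140165721-140391929 in hg19), the beta cluster 16 genes (chr5:140430961-140627801) and the gamma cluster 22 genes (chr5:140710252-140892548). RNA was sequenced from fusion-positive rhabdomyosarcoma cells, a childhood muscle-lineage tumour driven by a PAX3-FOXO1 fusion, after exposure to inhibitors of chromatin proteins. The screen held 44 samples taken at 6 h, namely 20 compounds at a high and a low dose 10-fold apart (10 and 1 µM, or 5 and 0.5 µM for LAQ824, Cpd50 and GSKJ4, with 1 sample at each dose) and 4 DMSO solvent controls, 2 at 0.2% for the high doses and 2 at 0.1% for the low doses. A further 8 samples were N1302 at 1 µM with its DMSO sample at 6 h, and entinostat at 1 µM with a DMSO sample at 1, 6 and 24 h. All 52 samples carried RH4 as the cell line in their labels and carried no engineered allele, but the screen samples were titled RH41 and the other 8 were titled RH4, so the comparisons were kept within each set.

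Clustered protocadherins are transmembrane proteins of the cadherin family that recognise the same isoform on a neighbouring cell, and they are best known in neurons, where each cell chooses its own small combination of isoforms as an identity code. In the alpha and gamma clusters each variable exon, with its own promoter, encodes the extracellular part and is spliced to constant exons shared by the whole cluster, whereas each beta gene is a complete coding exon of its own. Most of the variable promoters carry a conserved element with the core CGCT that the looping factor CTCF binds together with cohesin, and promoter choice is also tied to DNA methylation and repressive histone methylation.

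Promoter sequences are shown because this element is what the genes of each cluster have in common next to their start sites. RefSeq windows on GRCh38.p14, reaching from 250 bases before to 50 bases after a start, were found for 47 of the 53 genes (13 alpha, 14 beta and 20 gamma), and PCDHA3, PCDHA13, PCDHB6, PCDHB11, PCDHGA12 and PCDHGC5 had no entry. The 9-base word held by most genes of a cluster was picked for each cluster and counted on both strands. GGTGGCGCT lay in 13 of 14 beta genes and in 0.501% of all 35116 promoter windows, GATGTCGCT in 9 of 13 alpha genes and 0.105% of windows, and GCGCCGCTG in 10 of 20 gamma genes and 1.28% of windows. None of these words occurred in the windows of another cluster. The core CGCT, which all 3 words contain, lay in 46 of 47 genes, but it also lay in 70.0% of all windows. The words started at a median of 66 bases before the start in the beta genes, 53 in the alpha genes and 69 in the gamma genes. PCDHB1 was the beta gene whose window lacked the beta word. The genes printed are 5 beta genes with large falls under LAQ824, without PCDHB8, which had the largest log2 fall, and 1 with a large rise under MC1568. The alpha gene that passed the filter on low values and 2 gamma genes are also printed. The shared word is in capitals, and all are on the plus strand.
PCDHB5 (chr5:141135170-141135204): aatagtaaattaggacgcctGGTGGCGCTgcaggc
PCDHB7 (chr5:141172557-141172591): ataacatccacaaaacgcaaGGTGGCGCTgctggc
PCDHB16 (chr5:141182301-141182335): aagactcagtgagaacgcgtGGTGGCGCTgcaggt
PCDHB2 (chr5:141094535-141094569): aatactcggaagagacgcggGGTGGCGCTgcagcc
PCDHB9 (chr5:141187065-141187099): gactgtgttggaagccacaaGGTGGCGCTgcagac
PCDHB14 (chr5:141223254-141223288): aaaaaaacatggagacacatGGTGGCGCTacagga
PCDHA6 (chr5:140827888-140827922): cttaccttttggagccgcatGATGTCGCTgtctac
PCDHGB1 (chr5:141350017-141350051): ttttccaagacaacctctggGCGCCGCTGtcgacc
PCDHGA10 (chr5:141412923-141412957): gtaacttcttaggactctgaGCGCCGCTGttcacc

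Levels were TPM (transcript level scaled so that every sample has the same total), a unit that divides reads by gene length and by the total of the sample. The depth, read from the steps between the values, ranged from 5737939 to 41415072 reads with a median of 17033984. The 8 markers of fusion-positive rhabdomyosarcoma, among them MYOD1 and MYOG, were all above 10 TPM in the screen DMSO samples, with sums of 2788 to 2863 TPM. Sums were 0.223 to 0.669 TPM for 5 epithelial markers, with KRT19 at 0 in the 4 samples, and 0.608 to 1.18 TPM for 6 blood and endothelial markers, with PTPRC at 0. For 8 neuronal markers the sum was 6.16 to 7.41 TPM, mostly SYT1, with SNAP25, STMN2 and NEFL at 0. The 4 DMSO samples differed only by run and by concentration. Once these were taken out, their remaining variance was 0.995 times that of counting reads over 10378 genes, so a mean ± SD below counts the 2 concentrations and not the 4 samples. Nothing in the labels says that samples of a group came from separate cultures, so p-values measure the spread between these samples, which may be technical. In bulk RNA, fewer cells expressing a gene and less RNA per cell cannot be told apart.

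The shared exons limit what a level means in 2 of the clusters. In the GENCODE annotation on GRCh37 the alpha genes shared 3 stretches of 59, 89 and 2718 bases, together 53.0% of their median length, the gamma genes shared 3 stretches of 59, 89 and 2029 bases, or 47.1%, and the beta genes shared none. PCDHGA12 had 1 to 6 reads in the DMSO samples in which PCDHGC3 had 2832 to 3899, so reads of the shared exons had not been given to every gamma gene. How they were divided is not stated in the sources used here. Levels are therefore set side by side only among beta genes, and alpha and gamma genes are compared with themselves across samples.

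In DMSO, 23 of the 53 genes had a mean of 1 TPM or more, 13 of them beta, 10 gamma and 0 alpha, and 11 had 10 TPM or more. The summed level of each cluster, used below to compare samples and not clusters, had a mean of 227 TPM for beta, 173 for gamma and 1.23 for alpha. PCDHB5 was the highest beta gene at 82.9 ± 1.99 TPM (SD, n = 2), with single samples at 81.5, 81.5, 82.7 and 85.9. PCDHB8 followed at 35.6 ± 0.62 TPM (SD, n = 2), and its 4 samples lay between 33.2 and 37.2. Those 2 genes made up 52.1% of the summed beta level, and their samples did not overlap with each other or with any other beta gene.

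Next came PCDHB7 at 21.3 TPM and PCDHB2 at 19.5, whose samples overlapped (20.3 to 22.8 against 18.0 to 22.4). PCDHB11 at 13.4, PCDHB10 at 11.96, PCDHB14 at 10.7 and PCDHB16 at 10.2 formed a run in which each gene overlapped with its neighbour. PCDHB9 lay at 7.75 TPM, PCDHB12 at 5.12, PCDHB13 at 3.80, PCDHB3 at 2.63 and PCDHB15 at 1.13. PCDHB9, with 7.16 to 8.77 TPM, lay below PCDHB16 at 8.90 to 10.8 without overlap. PCDHB1 had no read in any DMSO sample, which allows up to 0.141 to 0.189 TPM at the limit of 3 reads. This and the other intervals on reads cover counting error only. Of the 14 beta genes with a promoter window, PCDHB1 alone lacked the shared word, and a link between word and level was not tested. The gamma levels that follow are given for comparison across samples and not as an order. PCDHGC3, one of the C-type genes at the far end of the array, had 97.5 ± 3.13 TPM (SD, n = 2), PCDHGB7 35.3 and PCDHGB1 21.6. The other gamma genes at 1 TPM or more were PCDHGA4 at 3.22, PCDHGB2 at 2.72, PCDHGA10 at 2.23, PCDHGA3 at 1.29, PCDHGA9 at 1.18, PCDHGA2 at 1.13 and PCDHGA6 at 1.02. Among alpha genes only PCDHA6, at 0.703 TPM with 25 to 30 reads a sample, passed the filter described next, and PCDHA9 and PCDHAC2 had no read in the DMSO samples.

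**Figure D1:**
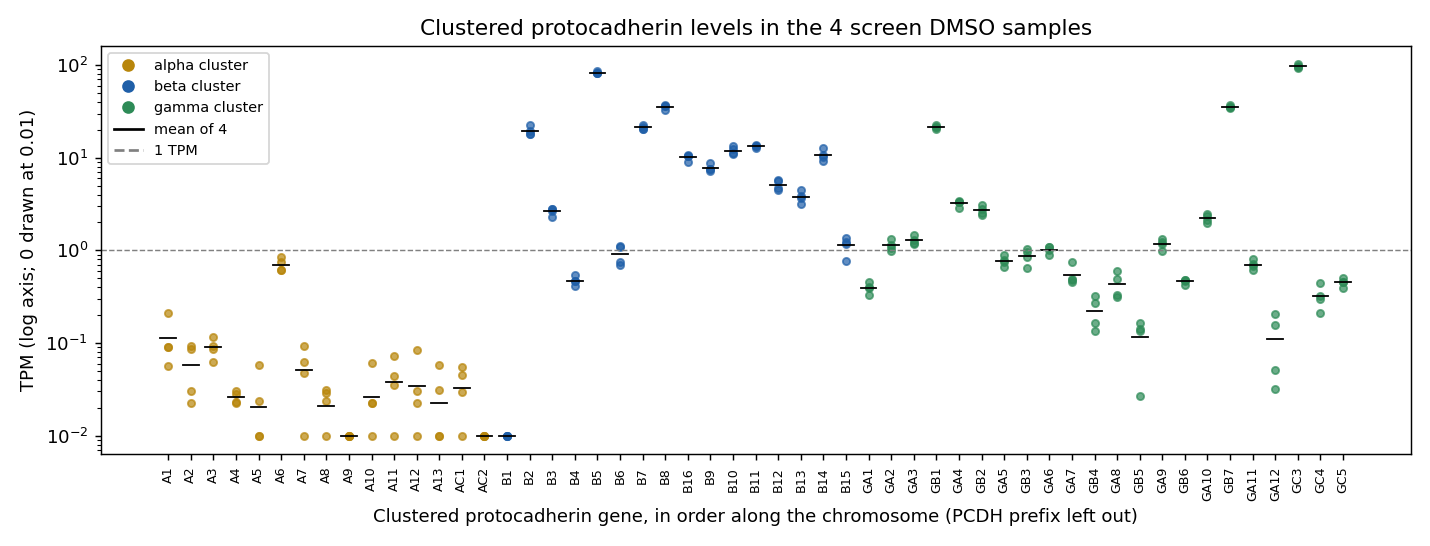
TPM of the 53 genes in the 4 screen DMSO samples (points, log axis, values of 0 drawn at 0.01) in chromosomal order, with the mean as a bar and 1 TPM as a dashed line. Means reach 82.9 TPM in the beta cluster (PCDHB5) and 97.5 in the gamma cluster (PCDHGC3), 13 beta and 10 gamma genes lie above the dashed line, and the alpha genes lie below it.

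Differences between compounds and DMSO were tested for genes with at least 1 TPM in 2 or more of the 52 samples. This kept 16359 genes and 30 of the 53 clustered protocadherins: 15 beta, 14 gamma and PCDHA6. A gene with a screen DMSO mean below 1 TPM could pass only through samples above that mean, so the 30 are not a sample of all 53. Such samples were not always treated, as PCDHGA11 had 1.21 and 1.05 TPM in the RH4-titled DMSO samples at 1 h and 24 h. Each compound's 2 doses were compared with the 4 DMSO samples on log2(TPM + 1), a scale that understates changes of low genes, and a gene was called at a limma adjusted p below 0.05. The spread behind these p-values was estimated mostly from differences between the 2 doses of a compound, pooled over the screen. It is therefore not a spread of replicates. Of the 600 pairs of gene and compound, 58 were called lower and 16 higher, in 7 of the 20 compounds. The compounds share the same DMSO samples, so their results are set side by side and not counted as independent. Only LAQ824, MC1568, Cpd50 and GSKJ4 had DMSO samples in their own sequencing run. For every other compound, WT161 and Bromosporin among them, a difference from DMSO is also a difference between runs.

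**Figure D2:**
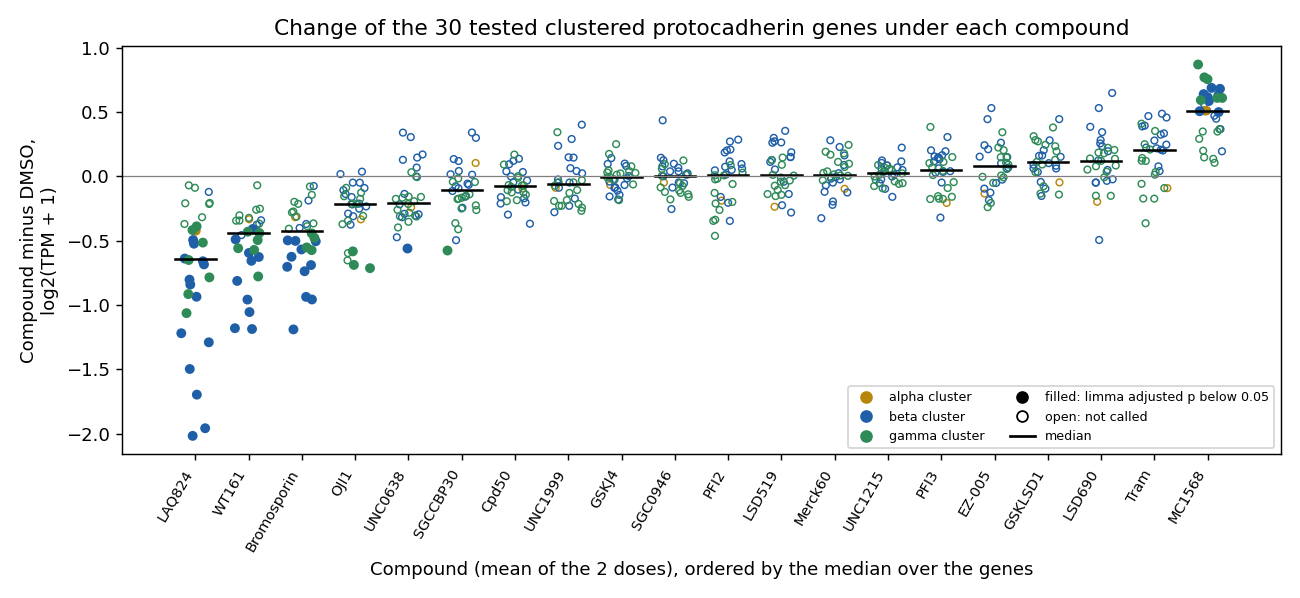
Difference from DMSO on the log2(TPM + 1) scale for each of the 30 tested genes (points, filled where the limma adjusted p was below 0.05) under each compound, with the median as a bar. LAQ824, WT161 and Bromosporin lie lowest with medians of -0.64, -0.44 and -0.43, MC1568 lies highest at 0.51, and the 13 compounds without a call have medians between -0.08 and 0.21.

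LAQ824, labelled as an inhibitor of histone deacetylases (HDACs), gave the largest falls of the clustered protocadherins in the screen. It lowered 22 of the 30 genes and raised 0, in a comparison in which 28.1% of all genes were called lower and 32.4% higher. The fallen genes were 14 of 15 beta genes, 7 of 14 gamma genes and PCDHA6. The median difference was -0.64 over the 30 genes, -0.84 in the beta cluster and -0.38 in the gamma cluster, against 0.06 over all genes. Both doses lay below all 4 DMSO samples in 28 of the 30 genes, as in 38.4% of all genes.

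The 5 largest falls were all in the beta cluster. PCDHB8 had 8.35 TPM at 5 µM and 7.74 at 0.5 µM, against 36.1, 36.0, 37.2 and 33.2 in DMSO. Both treated samples lay far below the solvent samples, a difference of -2.02 (SE 0.24, limma adjusted p = 7.3e-08) or 4.43-fold lower in mean TPM. PCDHB7 had 4.83 and 4.62 TPM against 20.3 to 22.8 in DMSO (-1.96, SE 0.22, limma adjusted p = 4.07e-08). PCDHB16 had 2.55 and 2.33 TPM against 8.90 to 10.8 (-1.70, SE 0.21, limma adjusted p = 9.75e-08). For both genes the treated samples sat close to each other and apart from DMSO. PCDHB5, the most abundant beta gene, had 29.4 and 27.99 TPM against 81.5 to 85.9 (-1.498, SE 0.16, limma adjusted p = 1.72e-08). PCDHB2 had 6.85 and 7.92 TPM against 18.0 to 22.4 (-1.29, SE 0.17, limma adjusted p = 4.58e-07). The beta genes did not fall by one common factor, since the neighbour PCDHB10 had 7.26 and 7.11 TPM against 11.01 to 13.3, a difference of -0.66. PCDHB10 was named after its values were seen, as were PCDHGC3 and PCDHGB1 below.

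The median difference was smaller in size in the gamma cluster than in the beta cluster. Many gamma genes are low, where the scale understates changes, and the clusters were not tested against each other. PCDHGC3 had 56.6 and 55.7 TPM against 94.0 to 102 in DMSO (-0.79, SE 0.15), and PCDHGB1 had 10.8 and 8.92 TPM against 20.6 to 22.6 (-1.06, SE 0.16). The beta gene that did not pass the test was PCDHB4, at 0.370 and 0.335 TPM against 0.409 to 0.540 (-0.12). The 7 gamma genes that did not pass it, PCDHGA2, PCDHGA5, PCDHGA6, PCDHGA7, PCDHGA9, PCDHGA11 and PCDHGB3, had DMSO means of 0.546 to 1.18 TPM and differences of -0.37 to -0.07. Summed over the cluster, beta TPM was 82.2 and 78.5 against 219 to 234 in DMSO, gamma 102 and 97.1 against 169 to 179, and alpha 0.490 and 0.389 against 1.03 to 1.43. The 2 doses did not step downward: 22 of the 30 genes were higher at 5 µM than at 0.5 µM. With the DMSO samples averaged within concentration, LAQ824 lowered 15 of the 30 genes and 24.6% of all genes, and with the DMSO samples of its own sequencing run alone it lowered 23 of the 30 and 33.4% of all genes.

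WT161, labelled as an HDAC6 inhibitor, lowered 16 of the 30 genes, 10 beta and 6 gamma, and raised 0, with 18.8% of all genes called lower and 23% higher. The median difference was -0.44 over the 30 genes and 0.03 over all genes, and both doses lay below all DMSO samples in 26 of the 30 genes, as in 28.1% of all genes. PCDHB5 had 30.4 TPM at 10 µM and 42.2 at 1 µM, against 81.5 to 85.9 in DMSO (-1.19, SE 0.16, limma adjusted p = 2.53e-06). PCDHB7 had 6.00 and 12.8 TPM against 20.3 to 22.8 (-1.18, SE 0.22). The high dose was the lower one in both genes. PCDHB8 had 11.48 and 23.9 TPM (-1.05, SE 0.24), PCDHB16 3.79 and 5.87 (-0.96, SE 0.21) and PCDHB2 8.32 and 13.6 (-0.81, SE 0.17), all below every DMSO sample. Unlike under LAQ824, 21 of the 30 genes were lower at the high dose than at the low dose. This order was not particular to WT161, since 28 of the 30 genes had it under UNC1999 and 25 under GSKJ4, which called none. The shares of all genes in either order were not counted, and the difference in dose order between WT161 and LAQ824 was not tested. PCDHGC3, named after its values were seen, had 64.8 and 80.1 TPM (-0.43, SE 0.15, limma adjusted p = 0.0215), a call that was lost when the other compounds of the same sequencing run served as the reference (-0.20, limma adjusted p = 0.347). With the DMSO samples averaged within concentration, 10 of the 30 and 14.3% of all genes were called lower. Against the other compounds of its own sequencing run, themselves treated samples, 13 of the 30 and 14.6% of all genes were called lower.

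Bromosporin, labelled as an inhibitor of bromodomains, the modules that read acetylated lysines, lowered 15 of the 30 genes, 11 beta and 4 gamma, and raised 0. Here 29.5% of all genes were called lower and 16.5% higher. The median difference was -0.43 over the 30 genes against -0.12 over all genes, and both doses lay below all DMSO samples in 24 of the 30, as in 36.9% of all genes. PCDHB7 had 5.39 TPM at 10 µM and 13.9 at 1 µM (-1.19, SE 0.22, limma adjusted p = 0.000136). PCDHB5 had 35.7 and 49.9 TPM (-0.96, SE 0.16) and PCDHB8 had 11.2 and 28.9 (-0.94, SE 0.24). In these 3 genes the low dose lay between the high dose and DMSO. PCDHB14 had 6.10 and 5.85 TPM against 9.27 to 12.8 in DMSO (-0.74, SE 0.18), with no step between doses, and PCDHB2 had 9.22 and 14.5 (-0.70, SE 0.17). PCDHGC3 had 74.4 and 82.4 TPM, below every DMSO sample, but did not pass the test (-0.31, SE 0.15, limma adjusted p = 0.0876). With the DMSO samples averaged within concentration, 8 of the 30 and 23.4% of all genes were called lower, and the count was 1 of the 30 where a difference of at least 1 in log2 was asked for as well. Against the other compounds of its own sequencing run, themselves treated samples, 13 of the 30 and 26.9% of all genes were called lower.

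**Figure D3:**
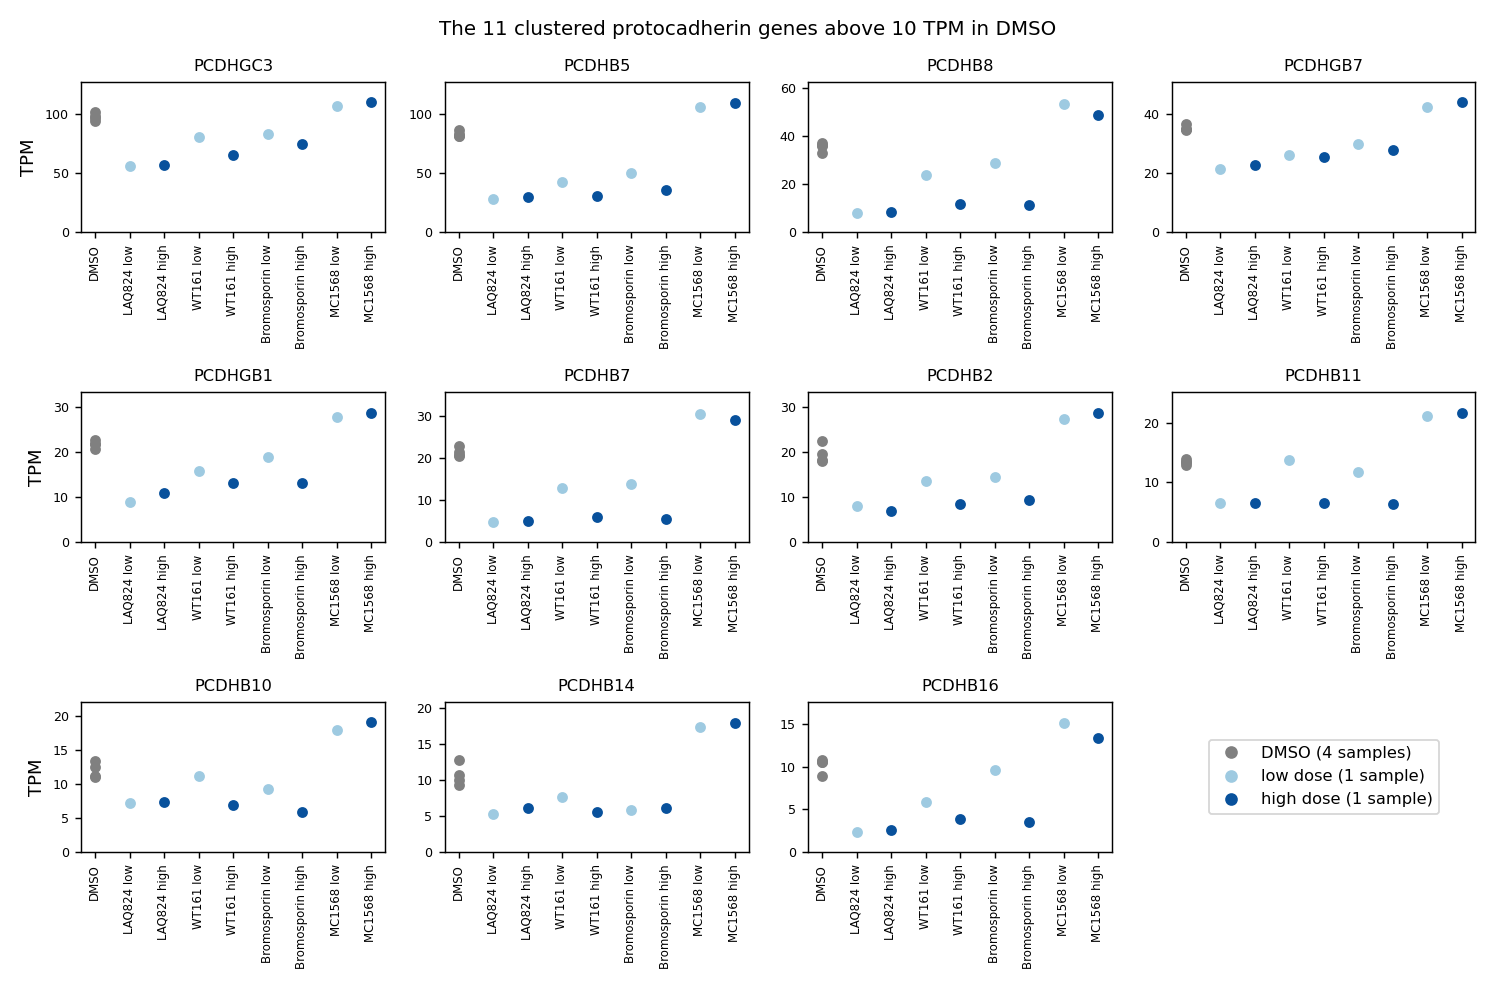
TPM (linear axes from 0) of the 11 genes at 10 TPM or more in DMSO, for the 4 DMSO samples and for the low and high dose (1 sample each) of LAQ824, WT161, Bromosporin and MC1568. Under LAQ824 both doses lie together below DMSO, as PCDHB8 at 7.74 and 8.35; under WT161 and Bromosporin most genes step down with dose; under MC1568 all points lie above the DMSO samples.

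MC1568, labelled as an inhibitor of HDAC4 and HDAC5, went the other way. It raised 16 of the 30 genes, 9 beta, 6 gamma and PCDHA6, and lowered 0, where 28.3% of all genes were called higher and 4.92% lower. PCDHA6 reached 1 TPM in 3 of the 52 samples, 2 of them the MC1568 samples, so it passed the filter only through them, and without those samples 15 of the 16 genes would have passed it. The median difference was 0.51 over the 30 genes and 0.26 over all genes. Both doses lay above all 4 DMSO samples in 27 of the 30 genes, as in 54.6% of all genes. The number of genes at 1 TPM or more was 29 and 30 of 53 under MC1568, 21 to 24 in DMSO and 17 to 26 under the other 19 compounds. Over all genes it was 13455 to 14997 in the 6 samples of the sequencing run that held MC1568 and LAQ824. The value of 14997 was also the highest of the 52 samples.

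On the log2(TPM + 1) scale the 5 largest rises were in 3 gamma and 2 beta genes. By the ratio of mean TPM the order differs, and PCDHB4, at 1.22 and 1.28 TPM against 0.409 to 0.540 in DMSO, had a ratio of 2.66. PCDHGA6 had 2.73 TPM at 10 µM and 2.64 at 1 µM, against 0.882 to 1.10 in DMSO (0.87, SE 0.18, limma adjusted p = 0.000507). PCDHGA5 had 2.41 and 1.67 TPM against 0.662 to 0.882 (0.77, SE 0.17), and PCDHGB3 had 2.23 and 2.07 against 0.644 to 1.04 (0.76, SE 0.18). These 3 genes are low in DMSO, and their treated samples rest on 65 to 103 reads. PCDHB14 had 18.0 and 17.4 TPM against 9.27 to 12.8 (0.69, SE 0.18) and PCDHB13 had 7.84 and 5.63 against 3.17 to 4.53 (0.68, SE 0.19). PCDHB5 and PCDHGC3 did not pass the test, PCDHB5 with 109 and 106 TPM against 81.5 to 85.9 (0.37, limma adjusted p = 0.082) and PCDHGC3 with 110 and 106 against 94.0 to 102 (0.15, limma adjusted p = 0.471). Summed beta TPM was 324 and 325 against 219 to 234 in DMSO, and summed alpha TPM was 2.99 and 2.29 against 1.03 to 1.43. With the DMSO samples averaged within concentration 8 of the 30 and 19.6% of all genes were called higher, and with the DMSO samples of the same run alone 25 of the 30 and 41.5% of all genes.

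In 3 other compounds few genes passed the test. OJI1, labelled as an HDAC8 inhibitor, had PCDHGC3, PCDHGB1 and PCDHGB7 called lower and 0 higher, with 0.923% and 0.3% of all genes. These calls rested on 1 library: PCDHGC3 had 84.7 TPM at 10 µM but 42.5 at 1 µM, and without the low-dose library the limma adjusted p of all 3 genes was 1. Summed gamma TPM was 147 in the high-dose and 79.4 in the low-dose sample, the latter with 6895436 reads, while summed beta TPM was 217 and 176. SGCCBP30, labelled as an inhibitor of the CREBBP and EP300 bromodomain, had 1 gene lower, PCDHGA10 at 1.33 and 1.02 TPM against 1.98 to 2.48 in DMSO (-0.57, SE 0.15, limma adjusted p = 0.014), where 6.11% of all genes were lower and 3.73% higher. UNC0638, labelled as a KMT1C inhibitor, had 1 gene lower, PCDHB5 at 44.8 TPM at 10 µM and 69.8 at 1 µM (-0.56, SE 0.16, limma adjusted p = 0.0139), where 18.9% of all genes were lower and 6.33% higher. Neither of these 2 calls passed when the other compounds of the same sequencing run served as the reference (limma adjusted p = 0.0962 and 0.165).

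No clustered protocadherin was called under the other 13 compounds in the fit of the whole screen, in which 0% to 6.58% of all genes were called higher and 0% to 5.73% lower. Between 0 and 7 of the 30 genes had an unadjusted p below 0.05, and single differences ranged from -0.49 to 0.65. Among the LSD1 inhibitors GSKLSD1 had a median of 0.11 (6.58% of all genes higher, 1.3% lower), LSD690 0.12 (2.67% and 1.36%) and LSD519 0.01 (1.57% and 0.165%). Among the EZH2 and EZH1 inhibitors EZ-005 had 0.08 (0.232% and 0.385%) and UNC1999 -0.06 (0.251% and 0.538%). Of the inhibitors of demethylases with a Jumonji domain, Cpd50 had -0.08 (5.22% and 5.73%) and GSKJ4 -0.01 (0% and 0.00611%). These compounds were not tested against each other. The DOT1L inhibitor SGC0946 had 0.0022 (0.538% and 0.281%), the SETD7 inhibitor PFI2 0.01 (0.691% and 1.22%), the SMARCA4 inhibitor PFI3 0.05 (0.0183% and 0.00611%) and the L3MBTL3 inhibitor UNC1215 0.03 (0.0672% and 0%). Merck60, labelled as an inhibitor of HDAC1 and HDAC2, had a median difference of 0.01 and 0 genes at an unadjusted p below 0.05 (0.245% of all genes called higher, 0.403% lower). Trametinib (Tram), an inhibitor of the kinases MEK1 and MEK2, had the highest median of the 13, at 0.21 (3.06% and 3.08%), with 7 genes at an unadjusted p below 0.05 and beta sums of 279 and 280 TPM against 219 to 234 in DMSO. With only a compound's own and the DMSO samples in the fit, some of these compounds did call genes: Tram 8 higher and 1 lower (16.6% and 14.5% of all genes), GSKLSD1 4 and 1 (28.7% and 7.52%), LSD690 4 and 1 (15.3% and 10.3%), PFI2 2 and 3 (13.8% and 10.8%) and Cpd50 0 and 3 (15.2% and 27.3%). Over the 44 screen samples, 14 of the 30 genes had their highest value in the high-dose and 11 in the low-dose MC1568 sample, and 10 had their lowest value in the low-dose LAQ824 sample. The same was not counted over all genes, so these numbers are a description. Of all genes, 54.6% had both MC1568 doses above all DMSO samples and 38.4% had both LAQ824 doses below them.

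The screen was laid out around compounds acting on histone acetylation (7 compounds) and on methylation (11 compounds), and the compounds of each kind were compared as replicates. No clustered protocadherin passed the limma test, nor did any of the 16359 genes (0%). At an unadjusted p below 0.05 there were 8 of the 30 genes and 5018, or 30.7%, of all genes. Of the 30 genes 26 were lower in the acetylation compounds, with a median difference of -0.23 against 0.01 over all genes. With the high doses alone PCDHB11 passed, in a comparison that called 9.87% of all genes.

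The dose step was tested within compounds over the 40 treated samples. No clustered protocadherin and 0% of all genes passed the limma test, and at an unadjusted p below 0.05 there were 3 of the 30 genes and 17.6% of all genes. PCDHB8 was lower at the high dose in 13 of 20 compounds (-0.24, SE 0.08, limma adjusted p = 0.161), PCDHB7 in 14 (-0.20, SE 0.08, limma adjusted p = 0.202) and PCDHB5 in 13 (-0.15, SE 0.06, limma adjusted p = 0.192). Between 0.2% and 0.1% DMSO, 0 of the 30 genes and 0% of all genes passed the limma test, with 0 of the 30 and 9.46% of all genes at an unadjusted p below 0.05, and differences of the 30 genes ranged from -0.20 to 0.18.

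N1302 and entinostat were studied in the samples titled RH4, each with a single treated and a single DMSO sample at each time, so no test was made for N1302 or at a single time and a change was counted from 2-fold on the log2(TPM + 1) scale. N1302, labelled as an HDAC inhibitor, had 9 of the 30 genes past 2-fold lower (5 beta and 4 gamma) and 0 higher, against 19.3% and 11.6% of all genes. The median difference was -0.57 over the 30 genes and -0.11 over all genes. PCDHB9 went from 8.21 TPM in DMSO to 1.35 (-1.97), PCDHB8 from 9.10 to 1.68 (-1.92) and PCDHB16 from 17.2 to 4.77 (-1.65). In the gamma cluster PCDHGC3 had 128 TPM in DMSO and 42.9 under N1302 (-1.56). PCDHB5 had 50.1 and 17.5 TPM (-1.47). Summed TPM went from 112 to 37.4 in the beta cluster and from 199 to 69.0 in the gamma cluster, and the number of genes at 1 TPM or more from 18 to 12, the lowest of the 52 samples. Over all genes, the 2 samples of this run had 12604 to 12961 genes at 1 TPM or more, and 12604 was also the lowest of the 52 samples. The N1302 library had the median-ratio log2 scale factor farthest from 0, -0.37, and with that scaling 8 genes were past 2-fold lower and the median was -0.49. With a pseudocount of 0.1 in place of 1, which weighs low genes more, 21 of all 53 genes were past 2-fold lower. Of these, PCDHA11, PCDHGB6 and PCDHGA12 had not passed the filter, and the share of all genes was not counted.

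Entinostat, labelled as an inhibitor of HDAC1, HDAC2 and HDAC3, was followed over time. At 1 h and at 6 h 0 of the 30 genes lay past 2-fold, where 0.66% of all genes were higher and 0.581% lower at 1 h, and 5.13% and 0.947% at 6 h. At 24 h 3 beta genes were past 2-fold lower and 0 genes higher, against 6.06% and 16.4% of all genes. These counts depended on the scale, with 1 lower after median-ratio scaling. With a pseudocount of 0.1, 7 of all 53 genes were lower and 4 higher. Those 4 were alpha genes outside the filter (PCDHA2, PCDHA3, PCDHA12 and PCDHAC1), with 1 to 6 reads in DMSO. The share of all genes at this pseudocount was not counted. PCDHB8 had 10.6 TPM in DMSO and 3.69 under entinostat at 24 h (-1.30), and 9.90 and 6.37 at 6 h (-0.57). PCDHB5 had 55.1 and 25.5 TPM at 24 h (-1.08), and PCDHB7 4.05 and 1.498 (-1.02). Both PCDHB5, at 57.1 and 41.0 TPM, and PCDHB7, at 3.66 and 2.27, were also lower in the 6 h pair. PCDHGB1 had 8.39 and 4.03 TPM (-0.90) and PCDHB11 5.22 and 2.39 (-0.88), both short of 2-fold on the log2(TPM + 1) scale though not in TPM.

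Over the 30 genes the median difference under entinostat was 0.04 at 1 h, -0.05 at 6 h and -0.39 at 24 h, against 0, 0.02 and 0.10 over all genes. The beta genes had a median of -0.31 at 6 h while the gamma genes had 0.06. Summed beta TPM under entinostat and in DMSO was 113 and 116 at 1 h, 82.4 and 115 at 6 h, and 57.9 and 116 at 24 h. Summed gamma TPM was 153 and 145, 129 and 143, and 84.7 and 139 at the same times. The alpha sum differed in the other direction at 24 h, with 2.76 TPM (181 reads) against 0.957 (69 reads). PCDHAC1, a C-type alpha gene that did not pass the filter and was named after its values were seen, had the largest difference among the alpha genes, at 0.721 TPM from 47 reads against 0.0282 from 2. The other reads were spread over 13 further alpha genes. The 3 treated and 3 DMSO samples were also fitted together with time as a block, a test added after the data were seen that asks for a difference common to the 3 times and leaves 2 residual degrees of freedom. None of the 30 genes passed it by limma (lowest adjusted p = 0.502) and 0 of all genes did, with 0 of the 30 and 440 of all genes (2.69%) at an unadjusted p below 0.05.

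**Figure D4:**
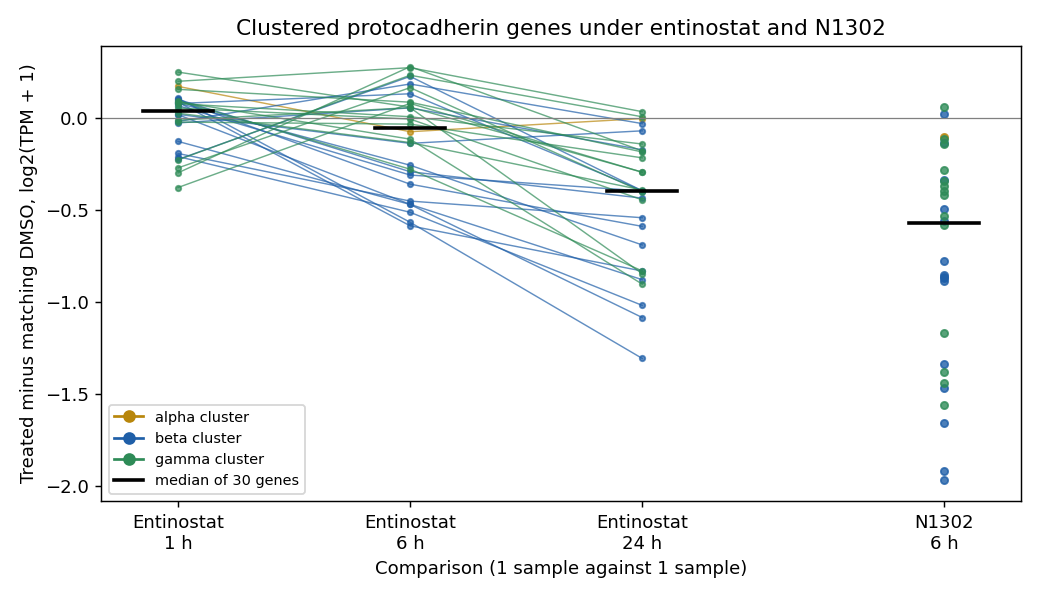
Difference between the treated and the matching DMSO sample on the log2(TPM + 1) scale for the 30 tested genes (points, joined across time for entinostat), with 1 sample on each side and the median as a bar. Medians go from 0.04 at 1 h to -0.39 at 24 h of entinostat, and N1302 at 6 h spreads from about 0 to -1.97 with a median of -0.57.

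The solvent samples themselves differed between the RH41-titled screen and the RH4-titled experiments. Of the 30 genes, 20 were higher in all 4 RH41-titled DMSO samples than in all 4 RH4-titled ones, as were 29.4% of all genes, and 3 were higher in all RH4-titled samples, as were 12.5% of all genes. PCDHB7 had 20.3 to 22.8 TPM against 2.86 to 4.77, a ratio of means of 5.54. PCDHB8 had 33.2 to 37.2 against 9.10 to 10.6, while PCDHGC3 overlapped, with 94.0 to 102 against 78.8 to 128. PCDHB16 lay the other way, with 8.90 to 10.8 TPM in the RH41-titled and 11.2 to 17.2 in the RH4-titled samples. Title, experiment and sequencing run coincide, so they cannot be told apart, and no test was made.

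**Figure D5:**
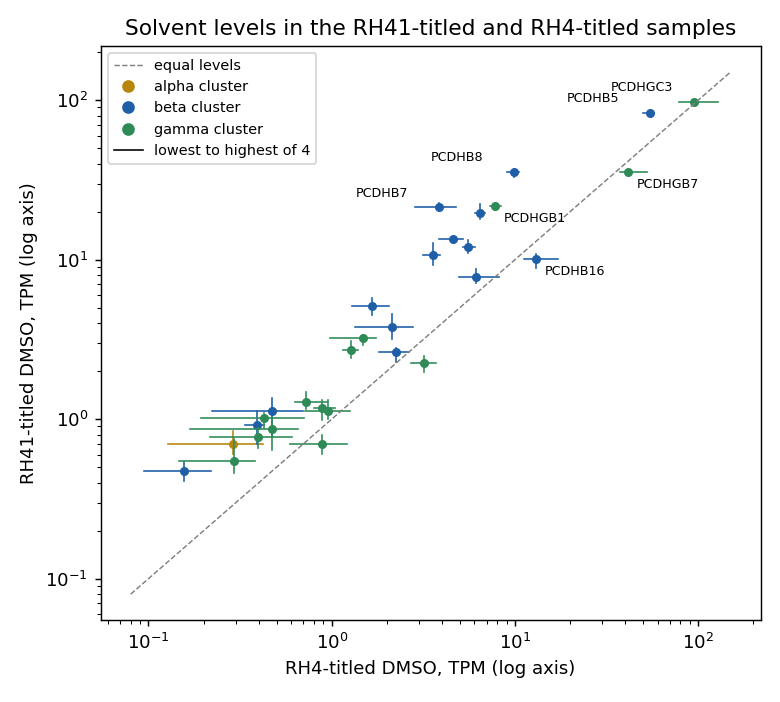
Mean TPM of the 30 tested genes in the 4 RH4-titled (x) and 4 RH41-titled (y) DMSO samples on log axes, with lines from the lowest to the highest of 4 samples and equal levels dashed. Most beta genes lie above the line, PCDHB7 farthest at 21.3 against 3.84 TPM, while PCDHGC3 lies on it and PCDHB16 below it.

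Many genes known to control the clusters were lower under the compounds that lowered the clusters. In a list of 18 such genes, holding CTCF, the cohesin subunits and their loaders, DNA methyltransferases and SETDB1-type silencing factors, 16 were tested. LAQ824 lowered 14 and raised 1, WT161 lowered 11 and raised 0, Bromosporin lowered 11 and raised 2, and MC1568 lowered 0 and raised 1. Over all genes the shares lower were 28.1%, 18.8%, 29.5% and 4.92%, and the shares higher 32.4%, 23%, 16.5% and 28.3%, which also stand beside the counts of the lists that follow. CTCF, which binds the promoter element printed above, had 18.8 and 21.4 TPM under LAQ824 against 91.9 to 94.1 in DMSO (-2.16, SE 0.18) and 23.6 and 52.8 under WT161 (-1.37, SE 0.18), and was not called under Bromosporin. RAD21, a cohesin subunit, had 142 and 142 TPM under LAQ824 (-1.63, SE 0.16). DNMT3B, a DNA methyltransferase, was the list's riser under LAQ824, from a mean of 30.5 TPM to 86.1 and 89.9 (1.496, SE 0.30). The part of these genes in the protocadherin changes was not tested.

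Related and neighbouring genes were called in both directions. Among 10 tested protocadherins that lie outside the clusters, LAQ824 raised 4 and lowered 1, WT161 raised 3 and lowered 1, Bromosporin raised 6 and lowered 2, and MC1568 raised 4 and lowered 0. PCDH9 went from a mean of 5.25 TPM in DMSO to 32.2 and 28.3 under LAQ824 (2.32, SE 0.26), whereas PCDH7 went from 124 to 16.0 and 15.9 (-2.88, SE 0.31). Among 12 tested genes beside the clusters on chromosome 5, LAQ824 raised 6 and lowered 1, WT161 raised 5 and lowered 1, Bromosporin raised 3 and lowered 1, and MC1568 raised 3 and lowered 3. TAF7, a transcription factor subunit gene that lies between the beta and gamma clusters, fell under LAQ824 from a mean of 263 TPM to 121 and 117 (-1.13, SE 0.16), and HDAC3, beyond the gamma cluster, rose from 87.6 to 136 and 155 (0.73, SE 0.10). Of 19 genes that act downstream of the proteins (the WAVE complex, which CYFIP1 belongs to, kinases they bind, and the proteases that cut them), LAQ824 raised 5 and lowered 7, WT161 raised 5 and lowered 4, Bromosporin raised 4 and lowered 7, and MC1568 raised 6 and lowered 1, shares near those of all genes.

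Markers of cell type also differed with the compounds. The 8 rhabdomyosarcoma markers were all lower under LAQ824, with sums of 880 and 869 TPM against 2788 to 2863 in DMSO, 5 were lower under WT161, 6 under Bromosporin, and 1 was lower and 1 higher under MC1568. Only SYT1 of the 8 neuronal markers had a DMSO mean of 1 TPM or more, so the others that were tested could pass the filter only through samples above their DMSO mean, and their calls are a description. Of 5 tested neuronal markers LAQ824 raised 4, WT161 3, Bromosporin 2 and MC1568 2, with sums of 39.96 and 40.5 TPM under LAQ824, 32.2 and 12.8 under WT161, 15.9 and 7.09 under Bromosporin, and 22.3 and 12.6 under MC1568. The part of these markers in the protocadherin changes was not tested. Epithelial markers summed to at most 1.62 TPM and blood and endothelial markers to at most 4.84 TPM in any screen sample.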

How the data were processed

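Expression was measured by paired-end RNA sequencing in 52 samples, grouped by the labels. The deposited values were TPM for 27043 genes, 1 table a sample, made by the authors with STAR and RSEM on hg19 per the methods. How reads of shared exons were divided is not given in the sources used here. Low values were whole multiples of a step in all 23645 genes above 0 TPM (tolerance 0.001 reads), which gave the reads, the depth of 5737939 to 41415072 and the counting error. Whole reads in every gene look like gene-level counting, and whether RSEM gave these values was not settled.

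TPM were transformed as log2(TPM + 1), filtered (1 TPM in 2 samples or more) and tested with limma 3.58.1 (trend) in R 4.3.3, with Benjamini-Hochberg adjustment over 16359 genes and calls at 0.05. The screen was fitted as a whole. Tables and figures were made with Python 3.11.15, pandas 2.3.3, numpy 2.4.6 and matplotlib 3.10.9. Single samples were compared with their DMSO sample without a test. Promoter windows came from RefSeq on GRCh38.p14, and no coordinates were converted. Genes of 1 TPM or more in DMSO were named, as were at most 5 rises and 5 falls a comparison. The genes and lists were chosen with earlier results of these data known. The fit was tested on simulated data for LAQ824 against DMSO over 16359 genes: of 50 genes changed at each size, it recovered 16% at a log2 change of 0.5, 78% at 1, 94% at 2 and 66% at -1, with 7 false calls. Alternatives were other pseudocounts, scalings, filters, references and samples left out. No deposited sample was left out.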

Additional observations from a re-analysis of the deposited data

Results flagged for a closer look

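In the 4 screen DMSO samples, 3 of the 30 tested genes had 1 sample far from the other 3, judged by Dixon's criterion on the gap as a share of the range, which chance alone gives in about 5% of genes. PCDHB16 had 8.90 TPM in replicate 1 at 0.2% DMSO, against 10.5 to 10.8 in the others. PCDHGA4 had 2.90 TPM in the same sample, against 3.296 to 3.37. PCDHGA7 had 0.754 TPM in replicate 1 at 0.1% DMSO, against 0.461 to 0.491.

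In the entinostat samples 2 values had opposite signs at 1 h and 24 h. The log2 ratio of summed gamma TPM to DMSO was 0.07 at 1 h, -0.15 at 6 h and -0.72 at 24 h. For PCDHB8 the difference on the log2(TPM + 1) scale was 0.11 at 1 h, from 273 and 309 reads, -0.57 at 6 h and -1.30 at 24 h. The 1 h values were small, so an opposite direction is not shown, and the difference between times was not tested.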

How the results depend on the processing

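No called difference of a gene changed direction under any alternative run, and of the repeated calls 839 held and 183 fell short of the threshold. The 58 lower calls became 33 with the DMSO samples averaged within concentration and 11 when a log2 difference of at least 1 was also required, and were 47 to 54 with 1 DMSO sample left out. The 16 higher calls became 9 with a mean of 1 TPM as the filter, 50 with only the compound's own and the DMSO samples in the fit (26 of them under MC1568, the others mostly under compounds without a call in the whole fit), 8 with averaged DMSO samples, 0 with a log2 difference of at least 1, and 13 to 15 with 1 DMSO sample left out. Of 3 screen alternatives added after seeing the data, the DMSO samples of the same run as reference covered only LAQ824, MC1568, Cpd50 and GSKJ4. For these it gave 25 higher calls, all under MC1568, and 24 lower, against 16 and 22 for the same compounds in the main fit. Voom weights on the recovered reads gave 17 higher and 63 lower, and the screen without the low-dose OJI1 library gave 18 higher and 65 lower. The axis comparison called 1 gene with the high dose alone. Over all 53 genes, a pseudocount of 0.1 gave 21 past 2-fold lower for N1302 and 7 for entinostat at 24 h. For entinostat at 24 h it also gave 4 higher, all outside the filter, and median-ratio scaling gave 1 lower. The cause of these shifts was not tested.

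The DMSO samples of the 2 concentrations share replicate numbers, and their runs coincide with them. The same-numbered samples correlated at 0.07 in their deviations, and the main fit did not take the numbers as pairs. That low correlation does not show that the runs were alike. The variance between runs was 1.89 times that of counting reads across 10378 genes, against 0.995 once run and concentration were taken out. A fit with the replicate number as a block takes this run difference into account. With the replicate block 0 of the 30 genes passed, as without it and with 1 sample left out (0 to 0), and 1768 in place of 1548 genes had an unadjusted p below 0.05. Genes below 1 TPM rest on few reads, which limits the size of change that could be detected among them.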
